A study of Mus musculus with 10 samples.

Results

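Cytoplasmic ribosomal proteins build the large and the small subunit of the ribosomes that translate nuclear messages. The genes described here are the protein-coding genes of the files whose symbol is Rpl or Rps followed by a digit, or Rplp0, Rplp1, Rplp2 or Rpsa, without the Rps6k kinases and without names ending in -ps. The rule found 85 genes of 45882 gene IDs, and it used no measured value. Of these, 45 encode proteins of the large subunit and 31 proteins of the small subunit, and these 76 are called subunit genes here. Another 8 are paralogues or related genes (Rpl3l, Rpl7l1, Rpl10l, Rpl22l1, Rpl36al, Rpl39l, Rps27l and Rps27rt), and 1, Rps19bp1, encodes a protein that binds a subunit protein and is itself no subunit. A further 256 gene IDs that match these symbols are pseudogenes or other genes without a protein product and are not members.

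The RNA came from cardiac myocytes isolated from left ventricles of the C57BL/6 strain, in 10 libraries of 10 different mice. There were 4 CTCF knockout libraries, 3 libraries from mice with transverse aortic constriction (TAC) and 3 control libraries. CTCF, a DNA-binding protein with zinc fingers, anchors loops of chromatin, and in TAC surgery a tied aorta makes the heart pump against a higher pressure. The genotype of the TAC mice, the Cre line and timing of the knockout, the age of the mice and the time after surgery are not given in the labels. All 3 groups share the strain, the tissue and the cell isolation, and the labels name no sham operation for the control mice. Sex was mixed within every group and not balanced between them. Read from Xist and Y-linked genes, TAC replicates 1 and 3 came from males. So did replicate 4 of the knockout group and replicate 2 of the control group, and all other libraries were read as female.

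Levels are given in FPKM, fragments scaled by transcript length and by library size, summed over the transcripts of a gene and rescaled between libraries. Because of the correction for length, levels of different genes can be compared. Genes with a mean of at least 1 FPKM were tested, 11358 in all, and a gene is called to have risen or fallen where the adjusted p (limma, Benjamini-Hochberg over all tested genes) was under 0.05. Fold changes are on the log2(FPKM + 1) scale. Of the 85 members 83 were tested. Rpl10l, listed at 0 in every library, and Rpl39l, at 0 to 0.114 FPKM, lay under the minimum.

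A ribosome carries 1 copy of nearly every ribosomal protein, and cells therefore keep the messages of these genes at related levels. Most of these messages begin with a run of pyrimidines at the cap, the 5′ terminal oligopyrimidine (TOP) motif, through which the growth kinase complex mTORC1 controls their translation. In mammals several ribosomal proteins have a paralogue that takes their place in particular tissues. Rpl3l, a paralogue of Rpl3, is known for its restriction to heart and skeletal muscle.

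Sequence around the start site was available from RefSeq (GRCm38.p6) for 65 of the 85 members, 56 of them subunit genes. The windows of 3 genes called in a comparison below, and of Rps27, the partner of Rps27l, are shown because they differ in short motifs common in ribosomal protein promoters. Each runs from 50 bases before the annotated start to 50 bases from it onwards, on the strand of the gene. Capitals mark CTTTC on the strand of the gene, a short run of pyrimidines that need not lie at the cap. They also mark CCGGAAG on either strand, the core of sites for ETS factors. Rpl3l lies at chr17:24727776-24727875 on the plus strand, Rpl5 at chr5:107900478-107900577 on the plus strand, Rps27l at chr9:66946036-66946135 on the plus strand and Rps27 at chr3:90213599-90213698 on the minus strand.
Rpl3l: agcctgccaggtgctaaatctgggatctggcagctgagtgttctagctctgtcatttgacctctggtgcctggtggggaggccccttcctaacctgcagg
Rpl5: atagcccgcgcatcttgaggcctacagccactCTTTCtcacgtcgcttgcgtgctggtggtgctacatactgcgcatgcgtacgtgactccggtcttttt
Rps27l: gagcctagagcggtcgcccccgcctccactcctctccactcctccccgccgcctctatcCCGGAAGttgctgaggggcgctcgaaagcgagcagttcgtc
Rps27: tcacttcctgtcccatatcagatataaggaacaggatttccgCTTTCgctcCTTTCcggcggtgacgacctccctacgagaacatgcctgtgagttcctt

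The Rpl3l window holds none of the searched motifs, whereas the Rps27 window holds CTTTC at 2 places. CTTTC was searched on the strand of the gene from 50 bases before to 50 after the start, not at the cap alone. It was present in 27 of the 56 windows of subunit genes (48.2%), against 12.6% of all 27025 windows of that length. CCGGAAG, searched with its reverse complement CTTCCGG from 250 bases before to 50 after the start, was present in 41.1% of the windows of subunit genes, against 9.14% of all windows. GGGCGG, searched with its reverse complement CCGCCC in the same 300 bases, was present in 58.9% against 35.9%. No motif contains another, although CTTTC and CCGGAAG can share a base where they adjoin, and a match describes letters, not binding. In the 300 bases of Rpl3l (chr17:24727576-24727875) none of the 3 motifs was found.

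The libraries and the targeted gene were looked at first. Ctcf stood at 2.90, 4.01, 2.603 and 4.42 FPKM in the 4 CTCF knockout libraries, at 7.32, 5.70 and 5.22 FPKM in the TAC libraries and at 8.81, 8.34 and 6.80 FPKM in the control libraries. It fell by 1.02 on the log2 scale in knockout against control (SE 0.16, adjusted p = 0.00136), and its lower level in TAC did not pass the test (log2 fold change -0.35, adjusted p = 0.201). The myocyte label held in every library: 8 myocyte markers summed to 27936 to 36424 FPKM in knockout, 29314 to 37649 in TAC and 34844 to 39196 in control. Over the same groups 5 fibroblast markers summed to 75.9 to 124, 100.2 to 108 and 53.2 to 97.6 FPKM, 5 endothelial markers to 40.8 to 66.6, 53.4 to 73.1 and 37.6 to 54.6 FPKM, and 5 macrophage and leukocyte markers to 39.3 to 66.8, 50.6 to 65.4 and 36.5 to 51.7 FPKM, in knockout, TAC and control. The 5 markers of smooth muscle and pericytes summed to 39.2 to 53.8, 42.5 to 55.9 and 44.6 to 68.2 FPKM, and 3 erythroid markers to 75.03 to 375, 546 to 947 and 168 to 719 FPKM. No marker was at 0 in every library of a group. In knockout against control 4 of 8 myocyte markers fell (Pln, Ryr2, Tnni3 and Myh6), against 10.2% of all tested genes. Pln and Tnni3 fell in TAC against control, where 7.37% of all tested genes fell. Col1a1, Col1a2 and Cspg4 rose in both comparisons, and Emcn and Adgre1 rose in knockout. Of all tested genes 10.6% rose in knockout and 8.08% in TAC. The other tested markers were not called against control. The part of these cell types in the results below was not tested. In bulk RNA, fewer cells of a type and less RNA per cell cannot be told apart. Without counts in the files, sequencing depth is unknown. The deposited values carry confidence limits for each transcript, which were not used, so no counting error is given here. A relative measure of depth, the median over transcripts of coverage divided by FPKM, lay between 3.90 and 6.09.

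The subunit genes formed a narrow band near the top of the myocyte transcriptome. Their mean levels over the 10 libraries ran from 55.3 FPKM for Rps16 to 388 FPKM for Rplp1, a 7.02-fold range with a median of 143 FPKM. All 76 ranked above the 90th percentile of the tested genes, between percentiles 93.0 and 99.0, while tested genes as a whole spanned 1.001 to 59765 FPKM with a median of 5.99. Large subunit genes had a median of 137 FPKM and small subunit genes one of 146 FPKM.

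Among the highest members were Rplp1, a protein of the acidic stalk that recruits translation factors, and Rps29 and Rps24 of the small subunit. Rplp1 averaged 402 ± 60.3 FPKM in knockout, 371 ± 64.9 in TAC and 387 ± 35.9 in control libraries (SD, n = 4, 3 and 3, as throughout). Rps29 averaged 384 ± 55.2, 287 ± 36.7 and 331 ± 68.0 FPKM in the same order, and Rps24 averaged 356 ± 41.2, 275 ± 62.2 and 336 ± 40.9 FPKM. None of these genes passed the test in any comparison.

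The lowest tested members were all outside the subunits. Rps27rt, a copy of Rps27, averaged 1.24 ± 0.113 FPKM in knockout, 1.13 ± 0.549 in TAC and 1.42 ± 0.294 in control libraries. Rps19bp1 averaged 3.77 ± 0.939, 3.36 ± 0.618 and 2.68 ± 0.433 FPKM, and Rpl7l1 averaged 11.7 ± 1.24, 11.2 ± 0.532 and 11.5 ± 1.72 FPKM. Rpl22l1 averaged 15.7 ± 1.15 FPKM in knockout, 11.9 ± 3.65 in TAC and 16.9 ± 2.40 in control libraries. The paralogues thus lay below the lowest subunit gene, with the exceptions of Rpl36al, at a mean of 73.8 FPKM, and Rps27l, at 58.8 FPKM.

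**Figure D1:**
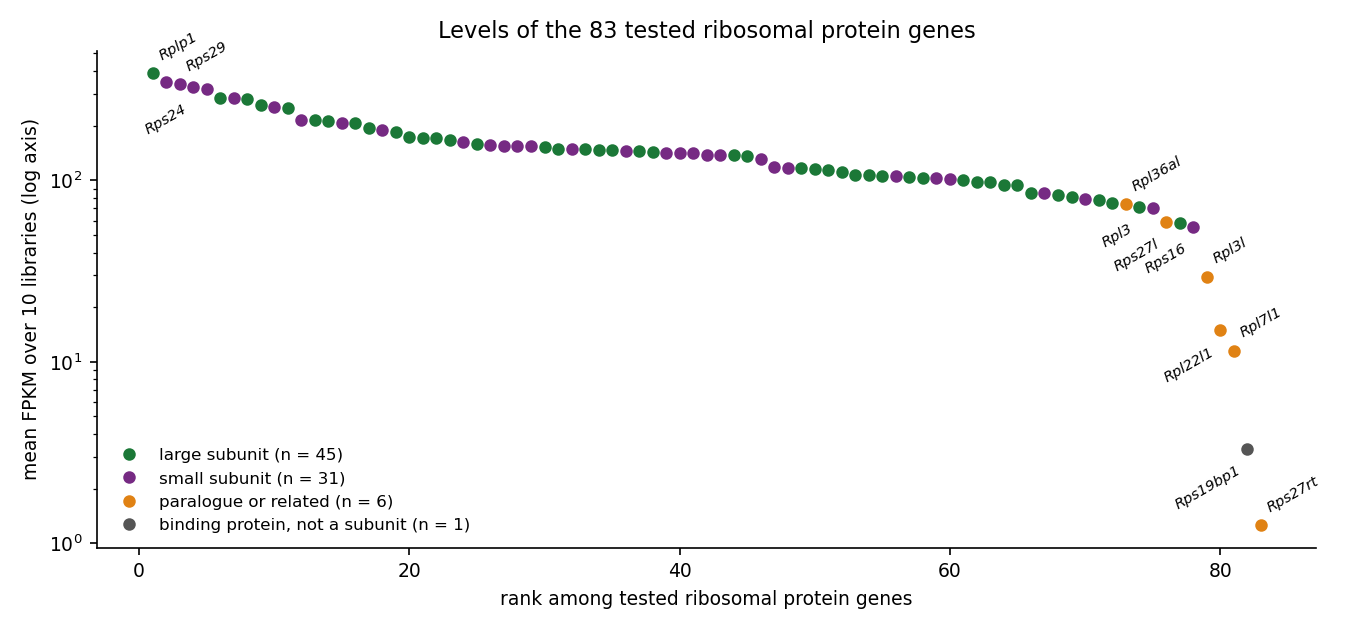
Mean FPKM over the 10 libraries (log axis) of the 83 tested members against their rank, coloured by class. Subunit genes span 55.3 to 388 FPKM, and Rpl3l, Rpl22l1, Rpl7l1, Rps19bp1 and Rps27rt lie below all of them.

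Most of this signal came from protein-coding transcripts, with a few exceptions. Over the 76 subunit genes, protein-coding transcripts held a median of 99.6% of a gene's FPKM in knockout, 99.5% in TAC and 99.6% in control libraries. For 4 genes the share was under 50% in each group. Rps20 had 6.36% in knockout, 6.13% in TAC and 5.98% in control libraries, and most of its FPKM was listed for a retained-intron transcript of 582 nt. Rpl12 had 22.5%, 21.1% and 20.0%, with a transcript annotated to nonsense-mediated decay in the lead, and Rpl23 had 45.7%, 41.1% and 40.4%. Rpl13a had 13.8%, 14.0% and 16.1%, but 10 of its 11 transcripts carry no type in the annotation used.

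Reads of these genes are hard to place, since processed pseudogenes copy many of them. The leading transcript was looked up for 75 subunit genes. Of these, 70 shared at least 1 stretch of 100 nt, letter for letter, with a transcript of another gene symbol. The median share of such stretches was 41.4%. Rpl3 shared 79.4% of its stretches with transcripts of 7 other gene symbols and Rpl5 shared 47.2% with 5. Rpl3l, Rps27l and Rps21 shared none. How the authors' quantification divided reads among such copies is not given in the sources used here, and the levels of genes with shared stretches are uncertain to that extent. Rpl3 and Rpl3l had no stretch in common.

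CTCF knockout myocytes differed from control myocytes at 4 of the 83 tested members. Rpl3, which reaches towards the peptidyl transferase centre of the large subunit, rose, and Rpl3l, its muscle paralogue, fell. Rps27l, a paralogue of Rps27 and in mouse and human a target of p53, rose, and Rpl5, which binds 5S rRNA together with Rpl11, fell. No gene of the small subunit passed the test in the main limma fit. The same fit called Rps16 higher after quantile normalization and without control replicate 3. It called Rps4x lower with rescaling over the ribosomal protein genes. An unadjusted p under 0.05 was found for 2 small subunit genes, a count without a share of all tested genes to set beside it. The 2 that rose and the 2 that fell make up 4.82% of the tested members, while 10.6% of all 11358 tested genes rose and 10.2% fell, 20.8% together. The median log2 fold change of the members was 0.015, against -0.0078 over all tested genes, with 43 members above 0 and 40 below. Its sign turned with single libraries, from -0.089 without control replicate 1 to 0.067 without control replicate 3.

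Rpl3 (ENSMUSG00000060036, chr15:80077794-80091868, minus strand, GRCm38) stood at 75.1, 88.5, 88.5 and 79.2 FPKM in the knockout libraries and at 43.9, 49.5 and 56.0 FPKM in the control libraries. Every knockout library lay above every control library. The means were 82.8 ± 6.79 FPKM in knockout and 49.8 ± 6.09 FPKM in control, a ratio of 1.66 and a log2 fold change of 0.73 (SE 0.15, adjusted p = 0.00541).

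Rpl3l (ENSMUSG00000002500, chr17:24727820-24736143, plus strand) stood at 23.8, 23.2, 23.3 and 21.5 FPKM in the knockout libraries and at 35.9, 41.8 and 47.8 FPKM in the control libraries. The knockout libraries were close together and all lower than the lowest control library. The means were 22.9 ± 1.02 FPKM in knockout and 41.8 ± 5.95 FPKM in control, a ratio of 0.549 and a log2 fold change of -0.83 (SE 0.12, adjusted p = 0.000593).

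Rpl5 (ENSMUSG00000058558, chr5:107900502-107909005, plus strand) stood at 87.2, 92.4, 94.8 and 86.7 FPKM in the knockout libraries and at 106, 112 and 138 FPKM in the control libraries. The groups did not overlap, and the log2 fold change was -0.38 (SE 0.12, adjusted p = 0.0387). Control replicate 3 was the highest library, and without it the log2 fold change was -0.27 with an adjusted p of 0.149. The call for Rpl5 was also lost without control replicate 2 (adjusted p = 0.0655), without any single knockout library (adjusted p from 0.0595 to 0.0882) and without TAC replicate 2 (adjusted p = 0.0514). Rpl11, the partner of Rpl5 in the 5S particle, averaged 121 ± 10.9 FPKM in knockout and 120.0 ± 18.0 FPKM in control libraries and was not called.

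Rps27l (ENSMUSG00000036781, chr9:66946086-66949516, plus strand) stood at 67.0, 69.7, 76.2 and 63.7 FPKM in the knockout libraries and at 42.8, 56.4 and 56.5 FPKM in the control libraries. All knockout libraries were higher than all control libraries, with a log2 fold change of 0.41 (SE 0.13, adjusted p = 0.0466). Control replicate 1 was the lowest library, and without it the log2 fold change was 0.29 with an adjusted p of 0.158. Leaving out any other library apart from TAC replicate 3 also lost the call, with adjusted p from 0.0517 to 0.111.

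**Figure D2:**
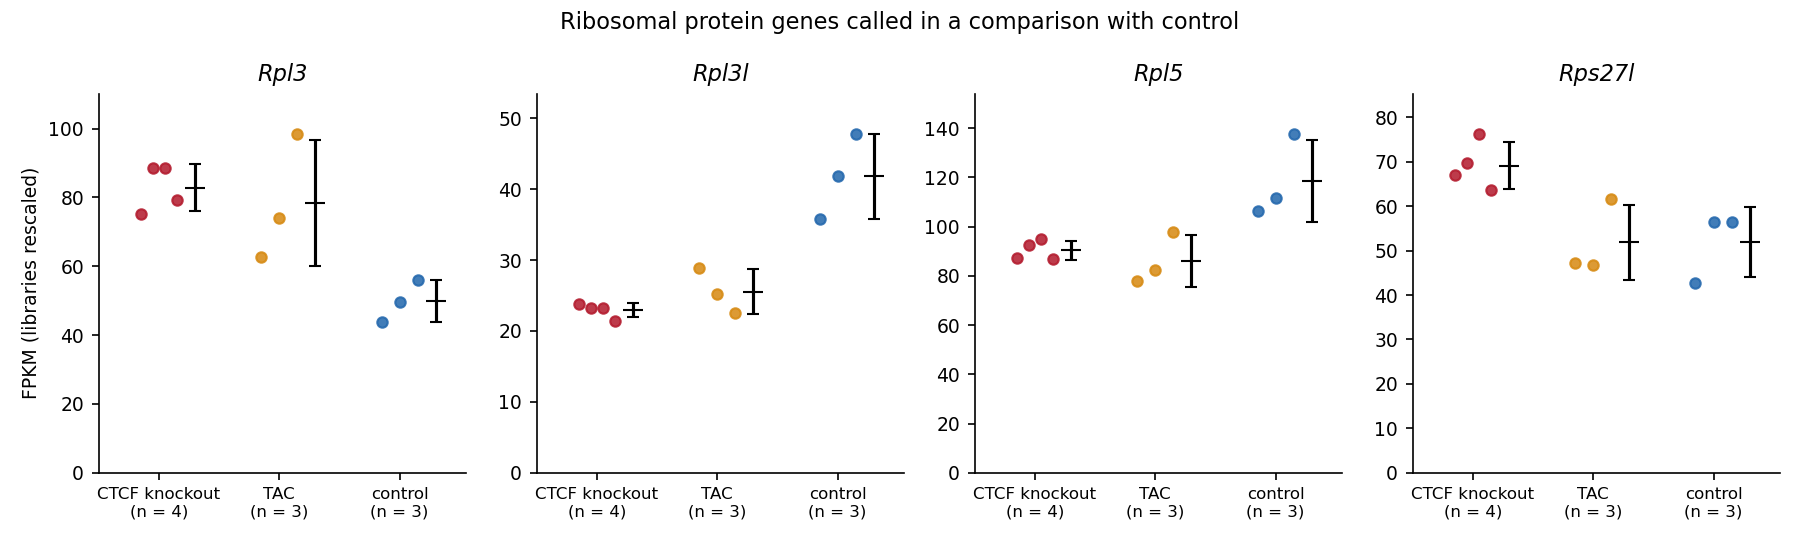
FPKM of Rpl3, Rpl3l, Rpl5 and Rps27l in each library of CTCF knockout (n = 4), TAC (n = 3) and control (n = 3), with the mean ± SD beside the points, and axes that start at 0. Rpl3 is higher and Rpl3l lower in every knockout and TAC library than in any control library, and Rps27l is higher in every knockout library than in any TAC or control library.

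Beyond the called genes, few members stood apart by group. Knockout and control libraries did not overlap for 8 tested members, 3 of them higher and 5 lower in knockout, while the groups did not overlap for 30.8% of all tested genes (14.8% higher and 16.0% lower). The largest difference that missed the threshold among the higher members was that of Rps16, a small subunit protein near the decoding site, at 67.5 ± 8.16 FPKM in knockout and 51.2 ± 14.6 FPKM in control (log2 fold change 0.42, adjusted p = 0.120). Among the lower members it was that of Rps4x, the X-linked small subunit protein, at 131 ± 11.5 FPKM in knockout and 170.1 ± 24.5 FPKM in control (log2 fold change -0.36, adjusted p = 0.101).

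In TAC myocytes, too, Rpl3 was higher and Rpl3l lower than in control myocytes. Rpl3 was at 62.8, 74.0 and 98.4 FPKM in the TAC libraries, against 43.9, 49.5 and 56.0 FPKM in the control libraries, and rose by 0.63 on the log2 scale (SE 0.16, adjusted p = 0.0206). TAC replicate 3 was the highest, and all TAC libraries lay above all control libraries. Without TAC replicate 3 the log2 fold change of Rpl3 was 0.45 and the call was lost (adjusted p = 0.0636), as it was without control replicate 1 (adjusted p = 0.0635) or control replicate 2 (adjusted p = 0.0545).

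Rpl3l was at 28.8, 25.2 and 22.5 FPKM in the TAC libraries, against 35.9, 41.8 and 47.8 FPKM in the control libraries, with no overlap. It fell by 0.69 on the log2 scale (SE 0.12, adjusted p = 0.00392). Rpl5 was at 77.7, 82.2 and 97.8 FPKM in the TAC libraries, against 106, 112 and 138 FPKM in the control libraries, and fell by 0.46 (SE 0.12, adjusted p = 0.0298). That call was lost without control replicate 2 or 3 or TAC replicate 1 or 2, with adjusted p from 0.0510 to 0.0999. Rps27l, which rose in knockout, averaged 51.8 ± 8.40 FPKM in TAC and 51.9 ± 7.89 FPKM in control libraries (log2 fold change -0.0026, adjusted p = 0.993).

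In TAC against control 3 of the 83 tested members were thus called, 1 higher and 2 lower, or 3.61%, against 15.5% of all tested genes (8.08% higher and 7.37% lower). The knockout and TAC comparisons share the 3 control libraries, so the presence of Rpl3, Rpl3l and Rpl5 in both is not independent. TAC and control libraries did not overlap for 1 higher member and 6 lower members, against 16.0% higher and 15.7% lower of all tested genes, 31.6% together. Between knockout and TAC, Rpl3 differed by 0.10 (SE 0.15, adjusted p = 0.778), Rpl3l by -0.14 (SE 0.12, adjusted p = 0.566) and Rpl5 by 0.077 (SE 0.12, adjusted p = 0.782) on the log2 scale, and these tests do not show equal levels.

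The ratio of Rpl3 to Rpl3l gave a single value per library. It was 3.15, 3.81, 3.80 and 3.69 in the knockout libraries, 2.18, 2.93 and 4.37 in the TAC libraries and 1.22, 1.18 and 1.17 in the control libraries. Control libraries were nearly alike, at 1.19 ± 0.0265, and every knockout and TAC library lay above them, with the widest spread in TAC. Rpl3l made up 21.8 ± 1.57% of the FPKM of the pair in knockout, 25.2 ± 6.43% in TAC and 45.6 ± 0.548% in control libraries. The sum of the pair was 106 ± 6.98 FPKM in knockout, 104 ± 15.2 in TAC and 91.6 ± 12.04 in control libraries, and the groups overlapped. Relative to the median large subunit gene of the same library, Rpl3 alone stood at 0.598 ± 0.0657 in knockout, 0.633 ± 0.0809 in TAC and 0.355 ± 0.00635 in control libraries.

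**Figure D3:**
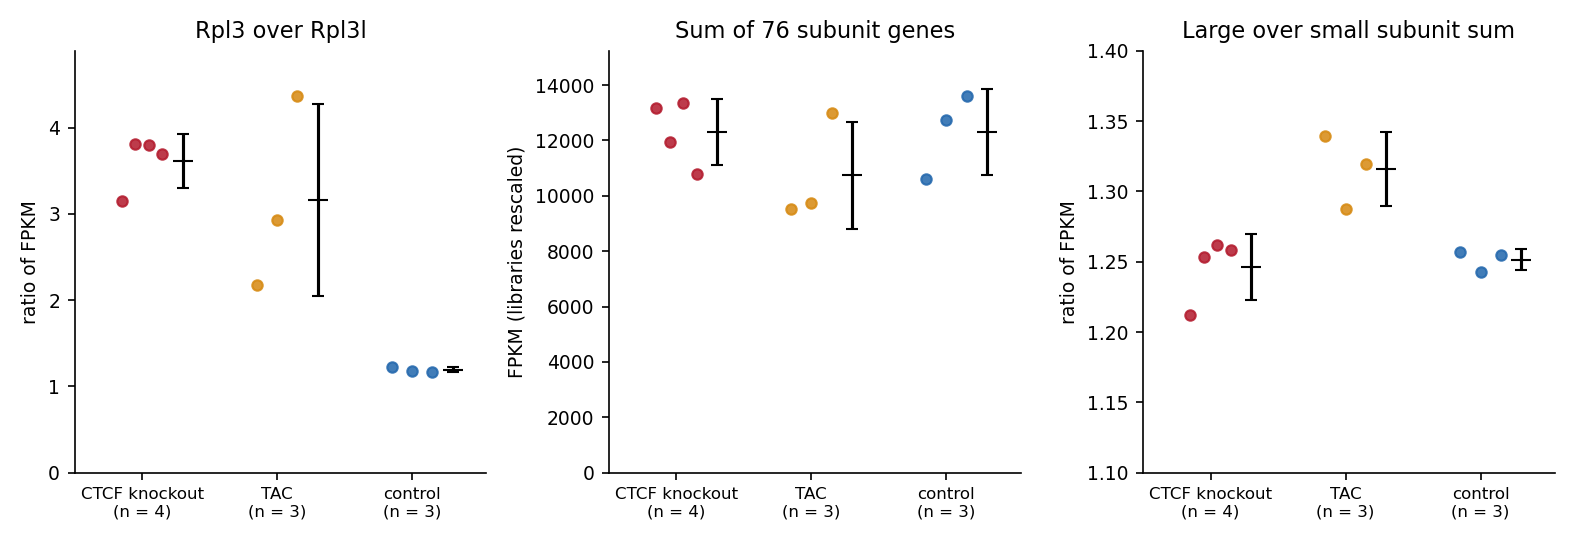
Per library, the ratio of Rpl3 to Rpl3l FPKM (axis from 0), the summed FPKM of the 76 subunit genes (axis from 0) and the ratio of the large to the small subunit sum (axis from 1.1 to 1.4), with the mean ± SD. The Rpl3 to Rpl3l ratio is 1.17 to 1.22 in control libraries and 2.18 to 4.37 in knockout and TAC libraries, while the sums of subunit genes overlap between groups.

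The leading transcript of Rpl3 held 92.7% of its FPKM in knockout, 94.7% in TAC and 92.1% in control libraries. That of Rpl3l held 97.8%, 93.1% and 97.9%. Levels of these transcripts therefore nearly repeat the gene sums and add no separate evidence. The leading Rpl3 transcript (ENSMUST00000081650, 1293 nt, protein-coding) averaged 76.8 ± 6.03 FPKM in knockout, 74.2 ± 17.2 in TAC and 45.8 ± 6.28 in control libraries. The leading Rpl3l transcript (ENSMUST00000170239, 1375 nt, protein-coding) averaged 22.4 ± 1.11 FPKM in knockout, 23.8 ± 2.63 in TAC and 40.9 ± 6.00 in control libraries. The 2 protein-coding transcripts of Rpl5 held 71.9% of its FPKM in knockout, 72.5% in TAC and 72.4% in control libraries, and retained-intron transcripts held the rest. The protein-coding transcript of 2045 nt was at 36.4 ± 6.52 FPKM in knockout, 33.9 ± 5.83 in TAC and 47.0 ± 9.54 in control libraries. The shorter one, of 834 nt, was at 28.6 ± 3.51, 28.4 ± 4.88 and 38.8 ± 5.62 FPKM. With the most abundant transcript in place of the sum, the call for Rpl5 was lost in knockout against control (adjusted p = 0.152) and in TAC against control (adjusted p = 0.0983).

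In no other pair of a ribosomal protein gene and its paralogue were both partners called. Rpl22 averaged 116 ± 9.64 FPKM in knockout, 106 ± 18.1 in TAC and 119 ± 18.1 in control libraries. Its paralogue Rpl22l1 had lower levels in TAC than in control libraries that missed the threshold (log2 fold change -0.50, adjusted p = 0.0734). Rps27 averaged 345 ± 48.1 FPKM in knockout, 255 ± 34.7 in TAC and 353 ± 29.6 in control libraries, and the difference between TAC and control also missed the threshold (log2 fold change -0.47, adjusted p = 0.0519). For Rps27, knockout and control libraries overlapped.

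Rpl36a averaged 70.8 ± 3.50 FPKM in knockout, 68.6 ± 14.2 in TAC and 86.7 ± 13.9 in control libraries, and its paralogue Rpl36al averaged 79.3 ± 9.04, 68.1 ± 8.61 and 72.2 ± 10.6 FPKM. Rpl39 averaged 94.9 ± 8.57 FPKM in knockout, 76.6 ± 15.6 in TAC and 82.2 ± 10.1 in control libraries, and Rpl39l, known from testis, was listed at 0 in all control libraries. Rpl7 averaged 158 ± 15.6, 150.1 ± 23.7 and 169 ± 27.4 FPKM, and Rpl10 averaged 150.5 ± 9.10, 141 ± 15.4 and 168 ± 23.5 FPKM in knockout, TAC and control libraries. None of these genes was called in any comparison.

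Rps4l is listed as a transcribed processed pseudogene in the annotation used and is therefore no member. It stood at 12.4, 11.9, 11.2 and 13.004 FPKM in the knockout libraries, at 5.48, 10.4 and 4.63 FPKM in the TAC libraries and at 6.46, 7.30 and 7.98 FPKM in the control libraries. It rose in knockout against control (log2 fold change 0.67, SE 0.20, adjusted p = 0.0310) and was higher in knockout than in TAC (log2 fold change 0.81, adjusted p = 0.0477). The first call was lost under 9 of 24 alternatives (adjusted p up to 0.116), 6 of them with a library left out, and the second under 16 (adjusted p up to 0.186), 8 of them with a library left out. Rps4x, the gene it resembles, was not called in either comparison.

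CTCF knockout against TAC gave no call among the 83 tested members in the main limma fit. Of all tested genes 3.28% were called (1.58% higher and 1.7% lower in knockout). An unadjusted p under 0.05 was found for 13 members. The share of all tested genes under that unadjusted limit is not given here, so this count has no background. With quantile normalization 14 members were called higher in knockout, against 2.24% of all genes tested in that setting. The libraries of the groups did not overlap for 4 members, all higher in knockout, against 8.43% of all tested genes higher and 9.64% lower. Of the 83 members 80 lay above 0, a count without the share of all tested genes to set beside it. Members shift together within a library and are not separate replicates. The median log2 fold change of the members was 0.20, against -0.0081 over all tested genes. With a library left out that median ran from 0.11 without TAC replicate 1 (0.12 without TAC replicate 2) to 0.32 without TAC replicate 3. Rescaling the libraries over the ribosomal protein genes themselves, chosen after these values were seen, moves it to 0.011 by construction.

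The largest differences between knockout and TAC were found in the small subunit. Rps16 was at 74.7, 62.3, 74.2 and 58.9 FPKM in the knockout libraries and at 34.9, 46.9 and 47.4 FPKM in the TAC libraries, with no overlap (log2 fold change 0.64, SE 0.18, adjusted p = 0.0750). Rps21 was at 275, 243, 266 and 196 FPKM in the knockout libraries and at 145, 152 and 208 FPKM in the TAC libraries, where the highest TAC library exceeded the lowest knockout library (log2 fold change 0.55, SE 0.15, adjusted p = 0.0817). Rps27 and Rps27l followed at 0.43 (adjusted p = 0.121) and 0.42 (adjusted p = 0.118). At the other end lay Rpl3l, Rplp0 at -0.076 (adjusted p = 0.829) and Rps13 at -0.025 (adjusted p = 0.943), the 3 members below 0.

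**Figure D4:**
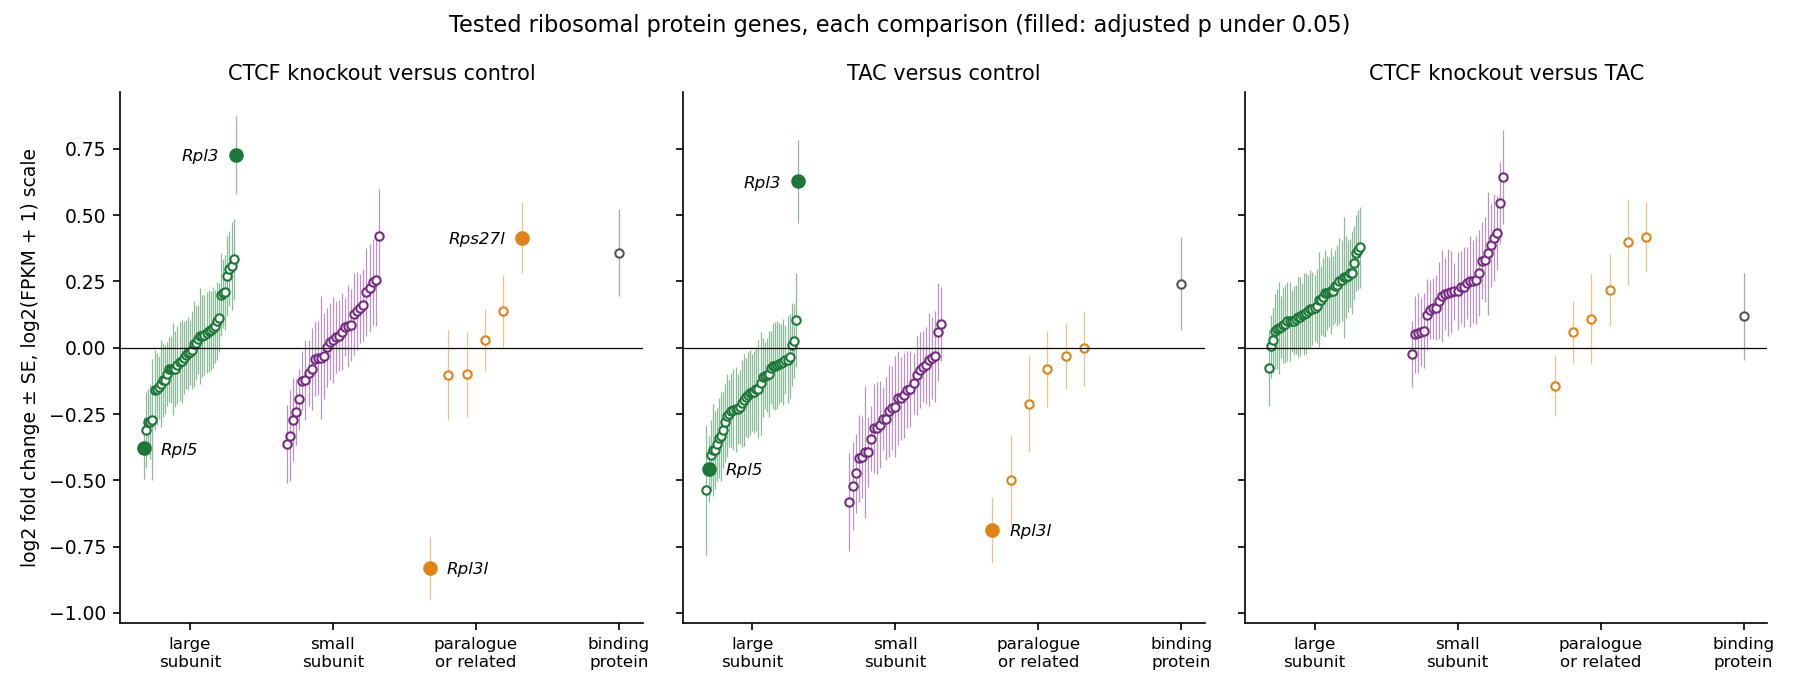
Log2 fold change ± SE of each tested member in the 3 comparisons, by class and sorted by size, with filled points for an adjusted p under 0.05. Rpl3 and Rpl3l stand outside the range of the other members in both comparisons with control, and no point is filled for knockout against TAC.

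In TAC against control the members as a group lay below 0. Their median log2 fold change was -0.18, against -0.0048 over all tested genes, and 76 of the 83 lay below 0. The share of all tested genes below 0 is not given here. Members shift together within a library, so they are not separate replicates, and the comparison rests on 3 TAC and 3 control libraries. Rescaling over the ribosomal protein genes themselves moves the median of the members to 0.013 by construction. The median was -0.33 without TAC replicate 3 and -0.29 without control replicate 1, and -0.098, -0.11 and -0.10 without TAC replicate 1, TAC replicate 2 and control replicate 3. With all libraries it was -0.17 for the large subunit and -0.22 for the small subunit. An unadjusted p under 0.05 was found for 18 members, a count without a share of all tested genes to set beside it. Nearest to the threshold were Rps27, Rps15a (log2 fold change -0.58, adjusted p = 0.0537) and Rps2 (log2 fold change -0.52, adjusted p = 0.0561).

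Single libraries differed from others of their group across most subunit genes at once. As the median over subunit genes of the difference from each gene's mean over 10 libraries, on the log2 scale, the knockout libraries stood at 0.16, 0.0099, 0.18 and -0.11, the TAC libraries at -0.29, -0.25 and 0.15, and the control libraries at -0.15, 0.10 and 0.24. TAC replicate 3 was the highest TAC library for 75 of the 76 subunit genes, while 34.8% of all tested genes were highest there. Control replicate 1 was the lowest control library for 75 of the 76, while 38.7% of all tested genes were lowest there. Knockout replicate 4, the male library of its group, was the lowest knockout library for 66 of the 76, against 29.3% of all tested genes. The male libraries stood at -0.11 (knockout replicate 4), -0.29 and 0.15 (TAC replicates 1 and 3) and 0.10 (control replicate 2). The part of sex in these differences between libraries was not tested.

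Results for the members depend on these libraries. Without TAC replicate 3, 16 members were lower in TAC than in control, where 4.9% of all genes tested in that setting were lower, and 2 were higher in knockout than in TAC, where 0.844% of all genes were higher. The median within-group SD of subunit genes was 0.20 on the log2 scale, against 0.17 for all tested genes, and it was 0.076 after the library median of the subunit genes was removed. Within a group, the subunit genes thus differed from library to library mostly by a shared amount.

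**Figure D5:**
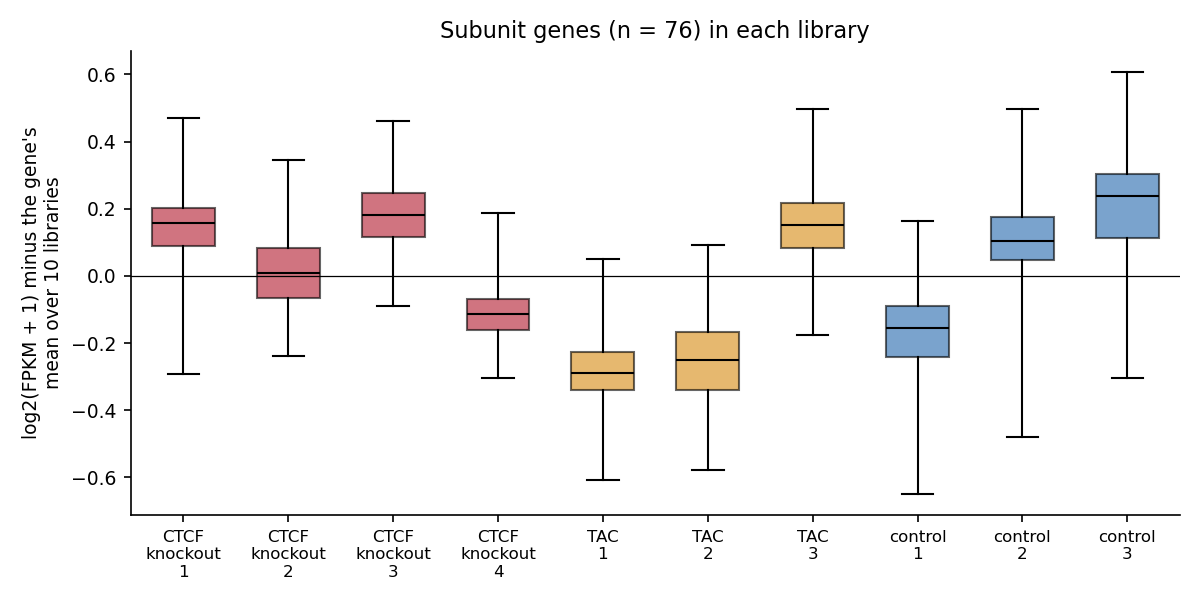
Distribution over the 76 subunit genes of log2(FPKM + 1) minus the gene's mean over the 10 libraries, for each library (box, quartiles; line, median; whiskers, lowest and highest gene). The boxes of TAC replicates 1 and 2 lie below 0 and that of TAC replicate 3 above it, and control replicate 1 lies below control replicates 2 and 3.

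The total of the 76 subunit genes did not separate the groups. It was 12313 ± 1189 FPKM in knockout, 10745 ± 1936 in TAC and 12315 ± 1551 in control libraries. The subunit genes took 1.69 ± 0.0886% of all FPKM in knockout, 1.68 ± 0.574% in TAC and 1.68 ± 0.0358% in control libraries, and TAC replicate 3, at 2.34%, stood above the other TAC libraries, at 1.31% and 1.38%. Of the FPKM of tested genes alone they took 2.57 ± 0.155% in knockout, 2.18 ± 0.340% in TAC and 2.28 ± 0.126% in control libraries, and by this measure TAC replicate 3 was at 2.57% and the other TAC libraries at 2.03% and 1.95%. The groups overlapped by both measures. The ratio of the large to the small subunit sum was 1.21, 1.25, 1.26 and 1.26 in the knockout libraries, 1.34, 1.29 and 1.32 in the TAC libraries and 1.26, 1.24 and 1.25 in the control libraries. All 3 TAC libraries lay above all knockout and control libraries in this ratio.

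Ribosomal proteins that the symbol rule leaves out were measured as well. Fau, which encodes Rps30 as a fusion with a ubiquitin-like protein, averaged 109 ± 11.5 FPKM in knockout, 87.9 ± 13.3 in TAC and 86.0 ± 9.01 in control libraries. Rack1, a scaffold on the small subunit, averaged 109 ± 7.38 FPKM in knockout, 111 ± 14.3 in TAC and 113 ± 13.8 in control libraries. Neither was called in any comparison.

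Among the factors that work on the ribosome, elongation factors held the largest change. Eef1a1, which brings aminoacyl-tRNA to the ribosome and is replaced by Eef1a2 in adult muscle, was at 347, 338, 322 and 320 FPKM in the knockout libraries, at 128, 131 and 166 FPKM in the TAC libraries and at 83.2, 95.6 and 118 FPKM in the control libraries. It rose by 1.75 in knockout against control (SE 0.13, adjusted p = 1.81e-05) and by 0.51 in TAC against control (SE 0.14, adjusted p = 0.0329), and it was 1.23 higher in knockout than in TAC (adjusted p = 0.00208), all on the log2 scale. Eef1a2 averaged 241 ± 18.4 FPKM in knockout, 361 ± 29.6 in TAC and 350 ± 48.1 in control libraries. It fell by 0.53 in knockout against control (adjusted p = 0.00998), it was lower in knockout than in TAC (log2 fold change -0.58, adjusted p = 0.0267), and it was not called in TAC against control (adjusted p = 0.844). Of 14 elongation and release factors tested, 2 rose and 1 fell in knockout against control, where 10.6% of all tested genes rose and 10.2% fell. In TAC against control 1 rose, against 8.08% of all tested genes. Besides Eef1a1, the one that rose in knockout was Pelo, a rescue factor for stalled ribosomes (log2 fold change 0.35, adjusted p = 0.0448). Of 24 alternatives, 11 lost the call of Pelo (adjusted p up to 0.192), 8 that of Eef1a1 in TAC (adjusted p up to 0.112) and 10 that of Eef1a2 against TAC (adjusted p up to 0.115).

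Of 38 initiation factors, 2 rose and 1 fell in knockout, and 1 rose and 1 fell in TAC, each against control. Of all tested genes, 20.8% were called in knockout and 15.5% in TAC against control. Eif4a1, the helicase of the cap-binding complex, rose in both (log2 fold change 0.49, adjusted p = 0.0172 in knockout and 0.61, adjusted p = 0.0104 in TAC). Eif3h, a subunit of the initiation factor eIF3, rose (log2 fold change 0.37, adjusted p = 0.0446) and Eif4g2 fell (log2 fold change -0.44, adjusted p = 0.0371) in knockout, while Eif4a2, the other isoform of the helicase, fell in TAC (log2 fold change -0.45, adjusted p = 0.0479). The call of Eif4a2 was lost under 16 of 24 alternatives (log2 fold change -0.79 to -0.26, adjusted p up to 0.405), that of Eif4g2 under 13 (adjusted p up to 0.248) and that of Eif3h under 10 (adjusted p up to 0.135).

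Of 46 ribosome assembly factors, 2 rose and 2 fell in knockout and 3 rose and 1 fell in TAC, each against control. The shares of all tested genes called in these comparisons were 20.8% and 15.5%. Rrp12, known in yeast for the export of both subunits, averaged 7.9984 ± 0.460 FPKM in knockout, 10.3 ± 1.35 in TAC and 3.80 ± 0.517 in control libraries, and rose by 0.91 (adjusted p = 0.000286) and by 1.23 (adjusted p = 0.000109) on the log2 scale. Bop1, a factor of large subunit maturation, rose in both (0.57, adjusted p = 0.00322 in knockout and 0.46, adjusted p = 0.0174 in TAC). Taf1d, a subunit of the initiation factor of RNA polymerase I, fell in both (-0.42, adjusted p = 0.0226 and -0.50, adjusted p = 0.0174), Polr1a, the largest subunit of that polymerase, fell in knockout (-0.31, adjusted p = 0.0345), and Tsr1, a factor of small subunit maturation, rose in TAC (0.42, adjusted p = 0.0378). The calls of Polr1a and Tsr1 were lost under 9 and 10 of 24 alternatives, with adjusted p up to 0.276 and 0.115. Those of Taf1d were lost under 7 of 23 in knockout and 4 of 23 in TAC, with adjusted p up to 0.396 and 0.349. That of Bop1 in TAC was lost under 3 of 24 (adjusted p up to 0.0537).

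Against 10.6% of all tested genes, 5 of 20 tested TOP messages other than ribosomal proteins rose in knockout against control. Besides Eef1a1 and Eif3h these were Naca, of the complex that meets nascent chains (log2 fold change 0.42, adjusted p = 0.0151), the histone chaperone Nap1l1 (0.31, adjusted p = 0.0445) and Vim (0.76, adjusted p = 0.0268), which fibroblasts also express. Of 4 tested fibroblast markers Col1a1 and Col1a2 rose in knockout against control, while Dcn (log2 fold change 0.079, adjusted p = 0.836) and Pdgfra (-0.10, adjusted p = 0.744) did not pass the test. In TAC against control Eef1a1 was the 1 TOP message called. Hnrnpa1, a splicing factor with a TOP message, was higher in knockout than in TAC (log2 fold change 0.48, adjusted p = 0.0365). Of 24 alternatives, 13 lost the call of Nap1l1 (adjusted p up to 0.301), 8 that of Vim (adjusted p up to 0.107) and 11 that of Hnrnpa1 (adjusted p up to 0.338). The median over this list was 0.20 in knockout and -0.0093 in TAC, each against control.

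Of 21 tested genes of mTORC1 and growth control, 1 rose and 6 fell in knockout and 2 rose and 1 fell in TAC, each against control. Among all tested genes, 10.6% rose and 10.2% fell in knockout, and 8.08% rose and 7.37% fell in TAC. Eif4ebp1, the repressor of cap-dependent translation that mTORC1 inactivates, rose in both (0.57, adjusted p = 0.0405 in knockout and 0.65, adjusted p = 0.0386 in TAC). These calls were lost under 12 and 13 of 24 alternatives, with adjusted p up to 0.110 and 0.111, and without TAC replicate 3 the log2 fold change in TAC was 0.41. Mtor itself rose in TAC (0.63, adjusted p = 0.0087) at 14.9 ± 1.42 FPKM, against 9.35 ± 1.68 FPKM in control, and was lower in knockout than in TAC (-0.68, adjusted p = 0.0159). Max, the partner of Myc, fell in both (-0.69, adjusted p = 0.0171 and -0.77, adjusted p = 0.0174), and the RNA-binding protein Larp4 (-0.43, adjusted p = 0.0155) and the mTORC1 inhibitor Sesn1 (-0.82, adjusted p = 0.0215) fell in knockout. The calls of Max were lost under 4 and 6 of 24 alternatives (adjusted p up to 0.103 and 0.166). That of Larp4 was lost under 5 (adjusted p up to 0.192) and that of Sesn1 under 7 (adjusted p up to 0.0744).

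Among 7 tested genes that host small nucleolar RNAs and encode no protein, Gas5, a TOP transcript, rose in knockout against control (0.41, adjusted p = 0.0353) and was higher in knockout than in TAC (0.55, adjusted p = 0.0357), calls that 8 and 12 of 24 alternatives lost (adjusted p up to 0.493 and 0.266). Snhg8 fell in TAC against control (-0.55, adjusted p = 0.0130). Each of these shares should be read against the 20.8% and 15.5% of all tested genes called in knockout and in TAC against control. For the calls between knockout and TAC the share of all tested genes was 3.28%.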

How the data were processed

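RNA of 10 libraries was measured: 4 CTCF knockout, 3 TAC and 3 control, each from a different mouse per the labels. PolyA RNA is the labelled molecule, but the protocol in the labels describes depletion of ribosomal RNA and a stranded kit, which leaves the selection of RNA unclear. The deposited transcript files hold FPKM values that the authors made with Cufflinks. Per the submitters' processing notes, the build was mm10 and the tools included Cuffdiff, Cufflinks 2.2.1, TopHat2 2.1.0 and Bowtie2. No read counts are in them, so depth is unknown and count tests were not used.

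Transcript FPKM was summed by gene ID. IDs whose longest transcript is under 300 nt were left out, as were 22 IDs with a value of 0 in one or more libraries but a median of at least 100 FPKM over the others. Median-of-ratios factors (0.912 to 1.10) rescaled the libraries, and genes with a mean of at least 1 FPKM were tested. The pseudocount was 1. limma 3.58.1 (R 4.3.3) fitted log2(FPKM + 1) over all 10 libraries with a variance trend, and two-sided p values were adjusted over all 11358 tested genes by Benjamini and Hochberg, with a threshold of 0.05. The limma fit alone was tried on simulated data with independent noise for each gene. The simulation lacked the shift that subunit genes share within a library. Sequence windows were searched in Python 3.11.15.

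The members, the gene lists and the rule for named genes were chosen with earlier results of these data known. Named are Ctcf, the pairs of ribosomal protein genes and paralogues, all called members, members from the highest and lowest 4, those not tested, the ends of the knockout against TAC comparison, up to 4 genes of each further list, and ribosomal proteins outside the symbol rule. Rpl11, Rpl12, Rpl13a, Rpl23, Rps2, Rps15a and Rps20 were named after their values were seen. Some genes that the rule covers are not reported here. Alternatives were other pseudocounts, filters, scalings, a sex covariate (read from Xist and Y-linked genes), the replicate number as a block, single transcripts and leaving out each library. Same replicate numbers did not mark shared mice, so the block is given with the alternatives alone.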

Additional observations from a re-analysis of the deposited data

Results flagged for a closer look

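Among 88 quantities of the 4 CTCF knockout libraries, 82 tested members and 6 sums or ratios, a library stood apart in 2, where the gap to the nearest library divided by the range of the group exceeded 0.829. Chance alone gives about 1 such case in 20 groups. Rps15a, a small subunit protein, was at 147, 142 and 142 FPKM in knockout replicates 1 to 3 and at 115 FPKM in replicate 4, with a value of 0.847. The ratio of the large to the small subunit sum was 1.25, 1.26 and 1.26 in knockout replicates 2 to 4 and 1.21 in replicate 1, with a value of 0.830. No cause of these differences was tested.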

How the results depend on the processing

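Rpl3 and Rpl3l kept their direction and their call in knockout against control under all 24 alternatives, at 0.64 to 0.85 and -0.93 to -0.70 on the log2 scale. In TAC against control Rpl3l kept its call under 23 of 24, the exception being rescaling over the ribosomal protein genes (log2 fold change -0.50, adjusted p = 0.0809), an alternative chosen after seeing the data, and Rpl3 kept its call under 19 (0.45 to 0.82). Rpl5 kept its call under 13 alternatives in knockout (-0.45 to -0.25) and 14 in TAC (-0.55 to -0.27), and Rps27l under 11 in knockout (0.29 to 0.60). These calls lie close to the threshold. Without rescaling, the median of all tested genes moves to 0.099 in knockout against control, and rescaling over the ribosomal protein genes moves it to 0.15 in TAC against control and to -0.17 in knockout against TAC.

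The number of members higher in knockout against control, 2, was 1 with no filter on the mean, with short genes kept, without a variance trend and with a sex covariate, 3 with the most abundant transcript and with rescaling over the ribosomal protein genes, and 6 with quantile normalization (11.3% of all genes), and it lay between 1 and 3 with a library left out. The number lower, 2, was 1 with no filter, without rescaling, with a sex covariate and with the most abundant transcript, 3 with rescaling over the ribosomal protein genes, and 1 to 2 with a library left out. In TAC against control the number higher, 1, was 0 with no filter and with only the groups compared, and 0 to 1 with a library left out. The number lower, 2, was 1 with no filter, without rescaling, with a sex covariate and with only the groups compared, 3 with mean FPKM at least 5 and without a variance trend, 5 with the most abundant transcript (7.36% of all genes) and 17 with quantile normalization (8.91%), and 1 to 16 with a library left out, 16 without TAC replicate 3 (4.9%). With the replicate number as a block it was 7 (6.26%). In knockout against TAC the number higher, 0, was 14 with quantile normalization (2.24%) and 1 with only the groups compared (1.66%), and 0 to 2 with a library left out, 2 without TAC replicate 3 (0.844%). The cause of these changes was not tested.

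Over all 65 fold changes of named genes, the alternatives gave 1558 values, of which 1218 kept direction and side of the threshold, 286 lost a call, 37 gained one and 17 changed sign, all of the last for genes that were not called. Rps27l in TAC against control was 0.061 without rescaling, 0.14 with the most abundant transcript, 0.19 with rescaling over the ribosomal protein genes and -0.13 to 0.066 with a library left out. In knockout against TAC, Rpl3 was -0.092 and Rpl5 -0.11 with rescaling over the ribosomal protein genes. Rps13 was 0.041 without rescaling, 0.052 with quantile normalization and 0.017 with the replicate block. With a library left out, Rpl3 ranged from -0.045 to 0.27, Rplp0 from -0.16 to 0.062 and Rps13 from -0.11 to 0.043.

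Deviations from the group means of libraries with the same replicate number had correlations of -0.36 to 0.33 over 9 pairs, 4 of them over 0.1. Libraries with different numbers had correlations of -0.345 to 0.462 over 24 pairs, 8 of them over 0.1. The ranges overlap, and deviations from the mean of so small a group depend on each other. These values therefore cannot decide whether libraries of the same number share a batch, which was not tested. The files hold no counts, and the confidence limits listed for each transcript were not used. The limit that depth sets is therefore not given.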
